A study of Mus musculus with 8 samples.

Results

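The genes described here are 40 textbook targets of interferon, followed across 8 arrays of mouse liver. They were chosen by name, 25 as targets of type I interferon, 7 as interferon gamma-inducible GTPases, 5 as antigen processing genes, and Irf1, Cxcl9 and Cxcl10 as 3 further interferon gamma targets. A probe set that the platform annotation pairs with a single symbol measured 34 of the 40, out of 19540 genes measured in all, and where a gene had several such probe sets the brightest stood for it. Isg15, Oas1g, Ifi44, Gbp2, Gbp6 and Igtp are not analysed here. That left 22 type I targets, 4 of the GTPases, 5 of the antigen processing genes and all 3 of the others.

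The arrays hold total RNA from whole liver, 4 labelled WT and 4 labelled HNF6KO. All samples are from male C57B/6 mice aged 12 weeks, fed normal chow, given no treatment and taken at ZT10, stated as 5 pm. HNF6 is the homeodomain transcription factor encoded by Onecut1, and the labels say that it was depleted, without saying how or in which cells. Nothing in them says that each array is a separate animal, so p-values reflect the spread among these samples alone, which may be technical. Values are on a scale read as log2, and every change is HNF6KO minus WT. Array medians lay between 6.89 and 6.97, and correlations between arrays between 0.987 and 0.997. Onecut1 read 9.87 to 10.52 on the WT arrays and 8.67 to 9.32 on the HNF6KO arrays, so the groups did not overlap. The 8 hepatocyte markers averaged 13.53 to 13.67 per array. In the test across all genes (limma, Benjamini-Hochberg adjusted p of 0.05), 78 genes differed, or 0.399% of those tested, and 16 to 79 did when any 1 array was left out.

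Interferons are secreted alarm signals. Type I interferons act through the receptor Ifnar1 and Ifnar2, and the kinases Jak1 and Tyk2 activate a complex that includes Stat2 and Irf9 and binds interferon-stimulated response elements. Interferon gamma acts through Ifngr1 and Ifngr2 and leads to binding at gamma-activated sites, and it also induces the factor Irf1, which reads the response element. In liver, hepatocytes, Kupffer cells and sinusoidal endothelial cells all respond, and low basal expression of these targets is kept up without infection. In RNA of a whole tissue, fewer cells of a type and less RNA per cell cannot be told apart.

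The promoters of the members are shown where both kinds of site can be read, because the comparison sets type I targets against interferon gamma targets. RefSeq windows (GRCm38.p6) of 250 bases before to 50 bases after the start were found for 29 of the 40 members. The core of the response element was searched as GAAANNGAAA, which is TTTCNNTTTC on the other strand, and the gamma-activated site as TTCNNNGAA, which reads the same on both strands. The core of the response element was found in 17 of the 29 members (58.6%), against 4.0% of the 27025 genes with a window. A gamma-activated site was found in 7 of 29 (24.1%), against 9.6% of genes. By windows, 3.44% of 32851 held the first motif and 8.3% the second, and the motifs overlapped in 24 windows, of which Bst2 was the only member. Among the type I targets with a window 11 of 17 held the core (64.7%), and among the GTPases 5 of 5 did. None of the 4 antigen processing genes with a window held it, and the windows of Psmb9 and Tap1 cover largely the same bases. A match is a description of the letters and not a site in use. The windows of Irf7, Irf9, Ifit2 and Oasl2, among others, held no core. The excerpts below are bases before the start of some members with a core there. They run 5′ to 3′ on the gene's strand, with the core of the response element in capitals.
Ifit1 (chr19:34640760-34640838, plus strand): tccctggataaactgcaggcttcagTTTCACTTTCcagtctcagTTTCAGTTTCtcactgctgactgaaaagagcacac
Ifit3 (chr19:34583348-34583441, plus strand): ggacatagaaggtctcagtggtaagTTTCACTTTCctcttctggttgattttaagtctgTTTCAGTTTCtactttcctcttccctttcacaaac
Rsad2 (chr12:26456538-26456597, minus strand): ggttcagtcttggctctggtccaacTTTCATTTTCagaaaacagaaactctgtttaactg
Bst2 (chr8:71537562-71537627, minus strand): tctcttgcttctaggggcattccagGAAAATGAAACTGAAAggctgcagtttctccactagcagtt
Stat2 (chr10:128270251-128270310, plus strand): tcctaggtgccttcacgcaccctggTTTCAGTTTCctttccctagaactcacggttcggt
Gbp3 (chr3:142559974-142560039, plus strand): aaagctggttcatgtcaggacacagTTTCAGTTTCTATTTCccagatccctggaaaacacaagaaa
Gbp7 (chr3:142530258-142530317, plus strand): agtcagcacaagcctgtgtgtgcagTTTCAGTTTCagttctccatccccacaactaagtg
Irgm1 (chr11:48871421-48871475, minus strand): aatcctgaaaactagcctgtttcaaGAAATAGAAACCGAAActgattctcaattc
Cxcl10 (chr5:92349068-92349127, minus strand): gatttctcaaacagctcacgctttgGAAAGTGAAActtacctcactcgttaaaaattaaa

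The core GAAACTGAAA, written TTTCAGTTTC on the other strand, stood in 9 of the 17 members with a core (52.9%), against 71 of the 1079 genes with a core (6.6%). Those 9 were Bst2, Gbp3, Gbp7, Ifit1, Ifit3, Igtp, Oas1a, Oas1g and Stat2, so type I targets and GTPases shared it. Oas1a and Oas1g are neighbouring copies whose windows are near-identical and count as related sequences. The core GAAAGTGAAA followed with 4 members, Cxcl10, Gbp2, Ifit1 and Ifit3 (23.5%, against 7.6% of genes). In Ddx58 and Ifih1 the core lay after the start and is not printed. Gamma-activated sites are shown for the transcription factor Irf1, the proteasome subunit Psmb8 and the GTPase Gbp7, again in capitals, because these are interferon gamma targets whose windows held that site.
Irf1 (chr11:53769899-53769957, plus strand): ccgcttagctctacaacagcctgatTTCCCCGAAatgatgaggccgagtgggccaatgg
Psmb8 (chr17:34198073-34198131, plus strand): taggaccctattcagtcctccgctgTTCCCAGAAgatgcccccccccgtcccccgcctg
Gbp7 (chr3:142530205-142530282, plus strand): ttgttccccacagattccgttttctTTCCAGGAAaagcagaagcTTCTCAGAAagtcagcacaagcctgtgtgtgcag

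Most interferon members lay higher on the HNF6KO arrays, but none passed the test. Of the 34, 32 had a log2 change above 0, where 42.6% of all genes did, and the exceptions were Oas3 (-0.03) and Stat2 (-0.01). At an unadjusted p of 0.05, 10 members were higher (4.3% of all genes) and 0 were lower (5.21% of all genes). Those 10 were Ifih1, Dhx58, Zbp1, Ifit2, Ifit3, Rsad2, Gbp3, Psmb8, Tap2 and Cxcl10. The smallest adjusted p among members was 0.257 (limma), for Ifih1. In no member did the 4 HNF6KO arrays lie all above or all below the 4 WT arrays, which was the case for 2.45% and 3.21% of all genes. The median log2 change was 0.25 over the members and -0.01 over all genes. The type I targets had a median of 0.28 with 6 of 22 higher at that unadjusted level, and the GTPases and antigen processing genes a median of 0.19 with 3 of 9. The count of 10 became 3 without WT array 1 (3.63% of all genes were higher), HNF6KO array 3 (3.62%) or HNF6KO array 4 (3.25%). It was 6 without WT array 2 (3.29%), 5 without WT array 4 (3.56%) and 19 without HNF6KO array 1 (6.53%). Without HNF6KO arrays 3 and 4 together it was 0 (4.44%). There, 18 of 34 members had a change above 0, and the median over all genes was 0.0014. In HNF6KO every member averaged higher on arrays 3 and 4 than on arrays 1 and 2. Leaving both out therefore had to lower every change, and that fall is not independent evidence. Without HNF6KO array 4 the median of the GTPases and antigen processing genes was 0.10 with 0 of 9 at the unadjusted level, and without arrays 3 and 4 it was -0.018 (type I 0.044). With array quality weights, Ifih1 and Rsad2 passed the test (limma, adjusted p = 0.0457 and 0.0352), where 1.03% of all genes passed.

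**Figure D1:**
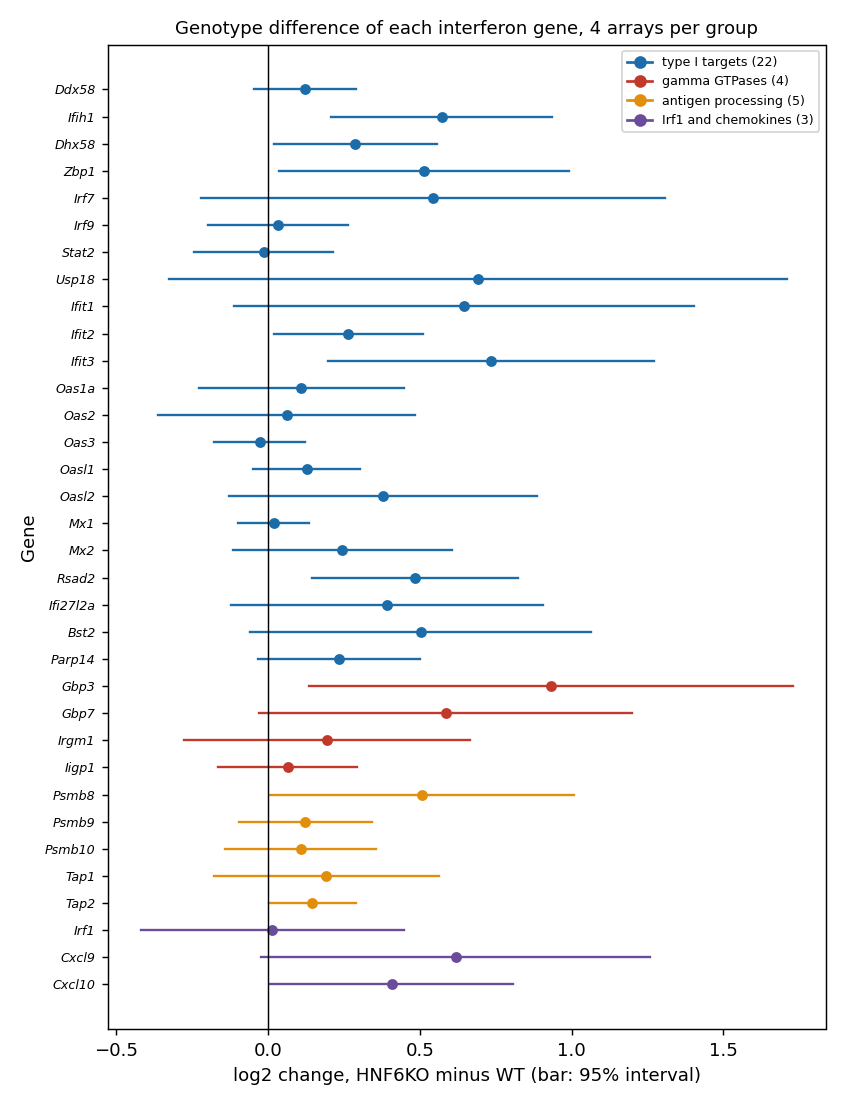
Log2 change of each of the 34 measured interferon genes (points, HNF6KO minus WT, 4 arrays per group) with its 95% interval from limma (bars), coloured by class. The points for 32 genes lie to the right of 0, most intervals reach 0, and Gbp3 has the largest change, at 0.93.

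The sensors of foreign nucleic acid were among the members with the smallest p. Ifih1, which encodes MDA5, a sensor of long double-stranded RNA, read 9.35, 9.52, 9.38 and 9.79 in WT, in the order of array numbers 1 to 4, and 9.67, 10.01, 10.21 and 10.44 in HNF6KO. HNF6KO arrays 2 to 4 lay above every WT array, and array 1 lay inside the WT range. The change was 0.57 ± 0.16 (SE, n = 4 per group), or 1.49-fold, with an adjusted p of 0.257. Zbp1, a sensor of Z-form nucleic acid that can set off necroptosis, read 7.51, 7.96, 7.62 and 7.93 in WT and 7.61, 8.40, 8.43 and 8.65 in HNF6KO. The same 3 HNF6KO arrays lay above all WT arrays, for a change of 0.51 ± 0.21 (adjusted p = 0.482). Dhx58, which encodes LGP2, a regulator of the other RNA sensors, read 7.66, 8.06, 7.64 and 7.78 in WT and 7.79, 8.19, 8.10 and 8.21 in HNF6KO, a change of 0.29 ± 0.12 (adjusted p = 0.484). Ddx58, which encodes RIG-I, stayed between 8.97 and 9.12 in WT and between 9.03 and 9.36 in HNF6KO, a change of 0.12 ± 0.07 (adjusted p = 0.679).

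The signalling members fell into a pair with wide spread in HNF6KO and a pair with nearly equal group means. Irf7, the factor that amplifies type I interferon production, read 8.67, 8.88, 8.91 and 8.76 on the WT arrays. On the HNF6KO arrays it read 8.52, 8.80, 9.88 and 10.19. Arrays 1 and 2 were within or below the WT range and arrays 3 and 4 stood about a log2 unit above it, so the change of 0.54 ± 0.34 had an adjusted p of 0.686. Usp18, the protease that removes ISG15 and dampens signalling from the type I receptor, read 7.83, 7.83, 8.20 and 8.33 in WT and 7.40, 8.38, 9.48 and 9.71 in HNF6KO. Its lowest and its highest value both came from HNF6KO arrays, with a change of 0.69 ± 0.45 (adjusted p = 0.703). Stat2 and Irf9, which act together downstream of the type I receptor, differed little between groups. Stat2 read 9.33, 9.42, 9.27 and 9.18 in WT and 9.06, 9.23, 9.29 and 9.55 in HNF6KO, a change of -0.01 ± 0.10 with a 95% interval of -0.24 to 0.21. Irf9 ranged from 8.05 to 8.21 in WT and from 7.94 to 8.46 in HNF6KO, a change of 0.03 ± 0.10.

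The antiviral effectors ranged from Oas3, with the lowest change of all members, to Ifit3, with the highest of the type I class, and had a median of 0.25. Ifit3, of the IFIT family that binds viral RNA, read 7.80, 8.13, 7.55 and 7.83 in WT and 7.87, 9.03, 8.44 and 8.90 in HNF6KO. Array 1 of HNF6KO sat among the WT values and the others above them, a change of 0.73 ± 0.24, or 1.66-fold (adjusted p = 0.337). Ifit2 read 5.79, 5.83, 5.89 and 5.81 in WT and 5.92, 5.86, 6.22 and 6.37 in HNF6KO, a change of 0.26 ± 0.11 (adjusted p = 0.482). Ifit1, named here after its values were seen, read 7.33, 7.46, 7.30 and 6.90 in WT and 6.84, 8.42, 7.78 and 8.54 in HNF6KO, a change of 0.65 ± 0.34 (adjusted p = 0.606). In Ifit1 and Ifit3 array 2 of HNF6KO stood above array 3, unlike in Irf7 and Usp18.

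Rsad2 encodes viperin, an enzyme that makes a chain-terminating nucleotide. It read 7.33, 7.47, 7.52 and 7.45 in WT and 7.41, 8.09, 8.05 and 8.15 in HNF6KO. The values of 3 HNF6KO arrays were tightly grouped above all WT arrays and the value of array 1 lay in the WT range. The change over 4 arrays each was 0.48 ± 0.15 (adjusted p = 0.319), and without HNF6KO array 1 it was 0.66 with an adjusted p of 0.00816 (limma). That array held the lowest HNF6KO value, so leaving it out had to raise the change, and this p-value is not independent evidence. Bst2, whose product tethers budding virions to the cell, varied widely in both groups, reading 10.90, 11.34, 11.67 and 10.71 in WT and 11.33, 11.42, 11.64 and 12.25 in HNF6KO. Its change was 0.50 ± 0.25 (adjusted p = 0.577). The oligoadenylate synthetases Oas1a, Oas2 and Oas3, which make the activator of RNase L, had changes of 0.11, 0.06 and -0.03. Oasl1 had a change of 0.13 and Oasl2 of 0.38. Mx1, a GTPase gene that is disrupted in C57BL/6 and most other laboratory strains, read 4.97 to 5.12 on all arrays, and its relative Mx2 had a change of 0.24. Changes of 0.39 and 0.23 were measured for the small membrane protein gene Ifi27l2a and the ADP-ribosyltransferase gene Parp14.

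Among the interferon gamma GTPases, Gbp3 had the largest change of any member. The guanylate-binding proteins coat the vacuoles of intracellular pathogens. Gbp3 read 6.98, 7.39, 7.33 and 7.27 in WT and 7.25, 7.71, 8.69 and 9.04 in HNF6KO, a change of 0.93 ± 0.35, or 1.91-fold (adjusted p = 0.429). Its HNF6KO arrays 3 and 4 lay over a log2 unit above the highest WT array. Gbp7 read 8.60, 8.73, 8.90 and 8.87 in WT and 8.84, 8.80, 9.75 and 10.06 in HNF6KO, a change of 0.59 ± 0.27 (adjusted p = 0.543). The probe sets of such close relatives can bind each other's transcripts, which was not tested. The immunity-related GTPases act on the same vacuoles, and Irgm1 regulates the others. Irgm1 read 8.81, 8.95, 8.86 and 8.87 in WT and 8.53, 8.90, 9.13 and 9.71 in HNF6KO, a change of 0.19 ± 0.21 (adjusted p = 0.856). Iigp1 read 11.09 to 11.18 in WT and 10.92, 11.11, 11.36 and 11.39 in HNF6KO, a change of 0.06 ± 0.10. In both genes HNF6KO array 1 was the lowest of the 8 arrays and array 4 the highest.

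The antigen processing genes showed 1 member with a large change and 4 with small ones. Psmb8, Psmb9 and Psmb10 encode the catalytic subunits that turn the proteasome into the immunoproteasome. Psmb8 read 8.85, 8.94, 8.76 and 8.95 in WT and 8.82, 9.07, 9.70 and 9.94 in HNF6KO, a change of 0.51 ± 0.22 (adjusted p = 0.513). Psmb9 read 8.69, 8.85, 8.69 and 8.73 in WT and 8.70, 8.74, 8.85 and 9.15 in HNF6KO, a change of 0.12 ± 0.10. Psmb10 had a change of 0.11. Tap1 and Tap2 form the pump that moves peptides to MHC class I molecules. Tap1 read 8.11, 8.19, 7.76 and 7.71 in WT and 7.88, 7.95, 8.15 and 8.56 in HNF6KO, so that only array 4 exceeded the WT range, for a change of 0.19 ± 0.16. Tap2 kept within 8.12 to 8.17 in WT and read 8.23, 8.15, 8.42 and 8.34 in HNF6KO, a change of 0.15 ± 0.06 (adjusted p = 0.515).

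Cxcl9 and Cxcl10 encode chemokines that draw T cells through CXCR3. Cxcl9 read 7.92, 8.31, 8.49 and 7.53 in WT and 8.04, 8.45, 9.05 and 9.19 in HNF6KO, a change of 0.62 ± 0.28 (adjusted p = 0.540). Cxcl10 read 6.33, 6.40, 6.54 and 6.30 in WT and 6.42, 6.53, 6.92 and 7.32 in HNF6KO, a change of 0.41 ± 0.18 (adjusted p = 0.511). For both, HNF6KO arrays 3 and 4 lay above all WT arrays and arrays 1 and 2 did not. Irf1 did not share that pattern. It read 8.51, 8.01, 7.94 and 7.89 in WT and 8.25, 7.68, 7.96 and 8.52 in HNF6KO, a change of 0.01 ± 0.19 with a 95% interval of -0.42 to 0.45. A second, dimmer probe set of Irf1 gave a change of -0.06.

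**Figure D2:**
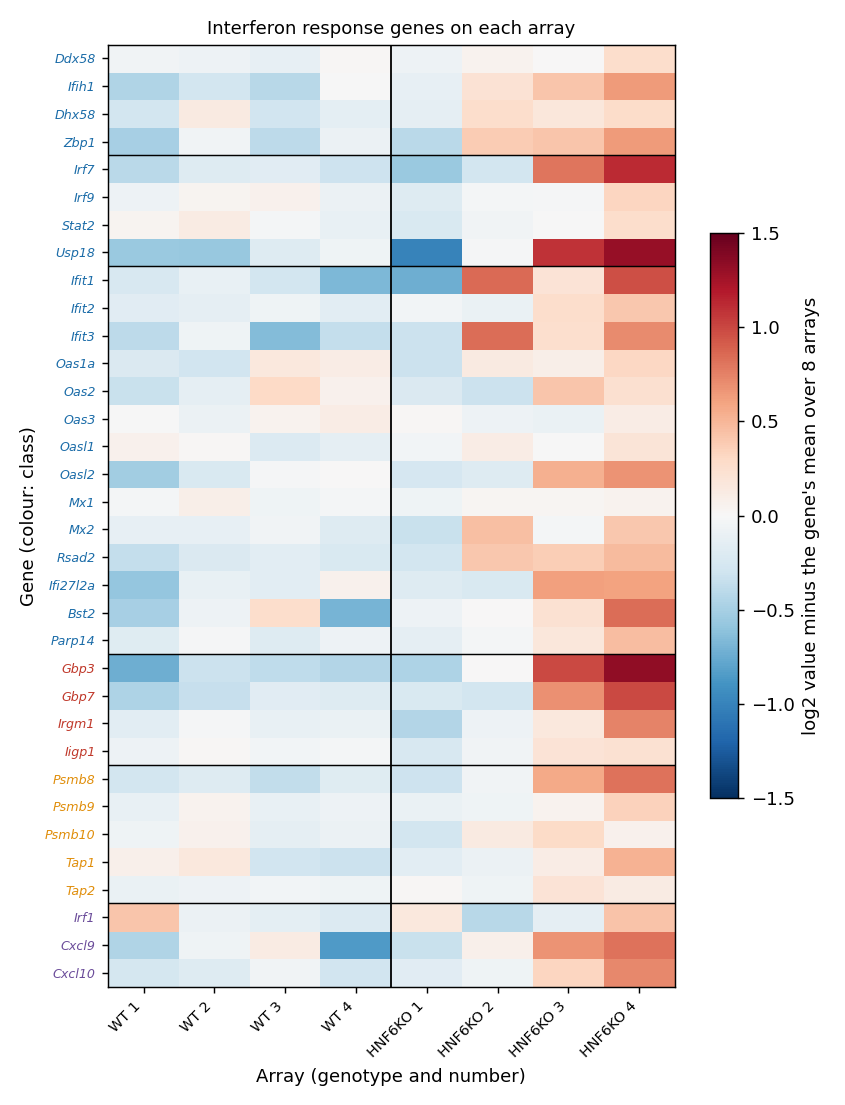
Log2 value of each measured interferon gene minus its own mean over the 8 arrays (colour scale), with genes in rows and arrays in columns; names are blue for type I targets, red for GTPases, orange for antigen processing and purple for Irf1 and the chemokines. The highest values stand in the HNF6KO 4 column, where 27 of 34 genes peak, and HNF6KO 1 resembles the WT columns.

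Across members the 4 HNF6KO arrays were not alike. HNF6KO array 4 lay above all 4 WT arrays in 32 of 34 members (25.1% of all genes) and was the highest of the 8 arrays in 27. HNF6KO array 3 lay above all WT arrays in 24 members (19.4% of all genes) and array 2 in 13 (20.4% of all genes). HNF6KO array 1 did so in 2 members, Ifit2 and Tap2, below the share among all genes (28.6%), and it lay below all WT arrays in 11 (22.1% of all genes). Arrays 3 and 4 were both above all WT arrays in 23 members, against 14.4% of all genes. The spread between arrays was larger in HNF6KO than in WT in 30 of 34 members, where 67.9% of all genes had the larger SD in HNF6KO. The median SD of the members was 0.117 in WT and 0.351 in HNF6KO, and that of all genes was 0.08 and 0.111.

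Type I targets and interferon gamma targets had nearly equal average changes, highest on HNF6KO array 4 and next on array 3 for both classes. For each array a class average was taken over its genes, each as the log2 value minus its mean over the 8 arrays. The type I average was -0.27, -0.11, -0.12 and -0.14 in WT and -0.26, 0.11, 0.27 and 0.51 in HNF6KO, again by array number. The average of the GTPases and antigen processing genes was -0.21, -0.07, -0.18 and -0.16 in WT and -0.25, -0.06, 0.36 and 0.58 in HNF6KO. The difference between group means was 0.31 for the first class and 0.32 for the second. On HNF6KO array 2 the classes were furthest apart, the type I average lying well above all WT averages and the interferon gamma average only just above the highest of them. Within the second class, the GTPases had a difference of 0.44 and the antigen processing genes of 0.21.

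**Figure D3:**
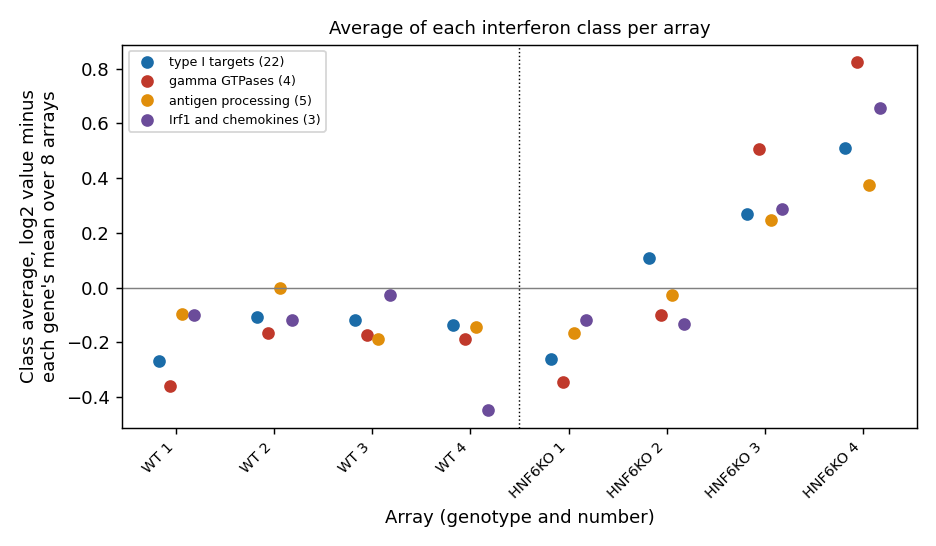
Average of each interferon class on each array, as log2 value minus each gene's mean over the 8 arrays (y axis), with WT arrays left and HNF6KO arrays right of the dotted line and 1 point per class and array. The 4 classes lie at or below 0 on all WT arrays and on HNF6KO 1, and all lie above 0 on HNF6KO 3 and 4.

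Taking the type I average minus the interferon gamma average on each array removes what the classes share. This contrast was -0.05, -0.03, 0.06 and 0.03 in WT and -0.01, 0.17, -0.09 and -0.06 in HNF6KO. In WT its mean was 0.001 ± 0.054 (SD, n = 4), whereas the HNF6KO mean was -0.001 ± 0.117 (SD, n = 4). Their difference of -0.002 was far smaller than the spread between arrays. HNF6KO array 2 had the highest value of the 8 and HNF6KO array 3 the lowest. On array 2, 10 of 22 type I targets and 3 of 9 GTPases and antigen processing genes were above all WT arrays. On arrays 3 and 4 together the counts were 13 of 22 and 8 of 9.

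Across all genes the arrays separated by number in both genotypes. The genotypes were therefore also compared within arrays 1 and 2 and within arrays 3 and 4. The labels name no batch, and this division was chosen knowing that the arrays separate by number, so its p-values are not independent evidence. Within arrays 3 and 4, 7 members were higher in HNF6KO (limma, adjusted p of 0.05), against 0.394% of all genes in either direction. These were Gbp3 by 1.57 (2.96-fold, adjusted p = 0.0148), Usp18 by 1.33 (adjusted p = 0.0132), Irf7 by 1.20 (adjusted p = 0.0323), Gbp7 by 1.02 (adjusted p = 0.0383), Psmb8 by 0.96 (adjusted p = 0.0455), and Oasl2 and Rsad2 by 0.61 each (adjusted p = 0.0494). They include type I targets, GTPases and an immunoproteasome subunit. In these arrays 33 of 34 members had a change above 0 (8045 of 19540 genes did), with a median of 0.50. Within arrays 1 and 2, 0 members passed (0.113% of all genes did), the median was 0.06 and 22 of 34 lay above 0 (9797 of 19540 genes did). At an unadjusted p of 0.05 only Ifih1 was higher there, by 0.41 (3.1% of all genes were higher), and Stat2 and Tap1 were lower, with changes of -0.23 and -0.24.

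**Figure D4:**
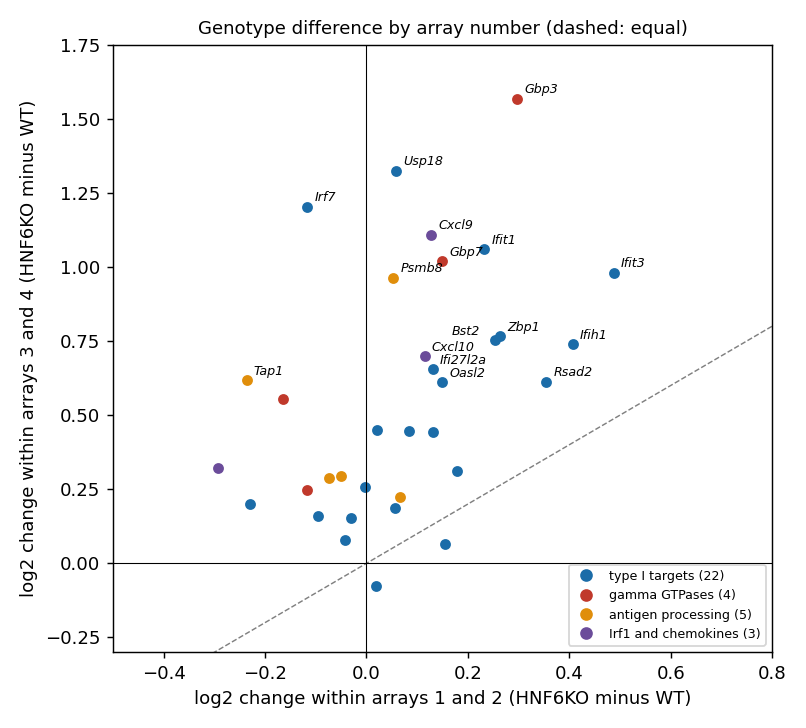
Log2 change of each measured interferon gene (HNF6KO minus WT) within arrays 1 and 2 (x axis) against that within arrays 3 and 4 (y axis), coloured by class; the dashed line marks equal changes. Gbp3, Usp18 and Irf7 lie between 1.20 and 1.57 on the y axis and between -0.12 and 0.30 on the x axis. Of the 34 genes 32 lie above the line, where 9134 of all 19540 genes would.

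The difference between those changes was tested as an interaction of genotype with the array numbers. No member passed (limma, 0 of 34), and 0 of 19540 genes did (0%). At an unadjusted p of 0.05, 16 members had the larger change in arrays 3 and 4, against 5.25% of all genes, and 0 had the smaller. The smallest p was that of Irf7, with a difference of 1.32 (limma, adjusted p = 0.359), followed by Gbp7 with 0.87 (adjusted p = 0.442). Of the 16, 7 were among the 9 GTPases and antigen processing genes and 7 among the 22 type I targets. In HNF6KO all 34 members were higher on arrays 3 and 4 than on arrays 1 and 2, with a median of 0.40, against 8466 of 19540 genes. In WT 19 of 34 were, with a median of 0.01, against 9741 of 19540 genes, a share near that of the members. Averaged over both genotypes, 4 members were higher on arrays 3 and 4 at an adjusted p of 0.05 (Oas2, Oasl2, Ifi27l2a and Gbp7), against 5.47% of all genes.

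Markers of Kupffer cells, the resident macrophages of the liver, were also higher on arrays 3 and 4, in both genotypes. The average of the 13 markers was -0.78, -0.02, 0.24 and 0.33 in WT and -0.29, -0.74, 0.74 and 0.52 in HNF6KO, by array number. Of the 13, 11 were higher on arrays 3 and 4 at an adjusted p of 0.05 (limma). The median difference between those array pairs was 0.68 in WT and 1.18 in HNF6KO. In WT the interferon members differed by a median of 0.01 between the same arrays. HNF6KO array 2 had the lowest Kupffer average of its group, and its type I average of 0.11 was above that of all WT arrays. The log2 of the summed marker signal ran from 12.03 to 13.01 in WT and from 12.03 to 13.36 in HNF6KO. Between genotypes the markers had a median change of 0.09 and 0 of 13 passed even an unadjusted p of 0.05. Within arrays 1 and 2 their median change was -0.12, with 2 of 13 above 0. Within arrays 3 and 4 it was 0.345, with 13 of 13 above 0, so the markers also differed more between genotypes there. The dimmest of the 13 markers averaged 7.12, near the median gene at 6.97, and whether each transcript was detected was not tested. The part of Kupffer cell content in the interferon values was not tested.

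**Figure D5:**
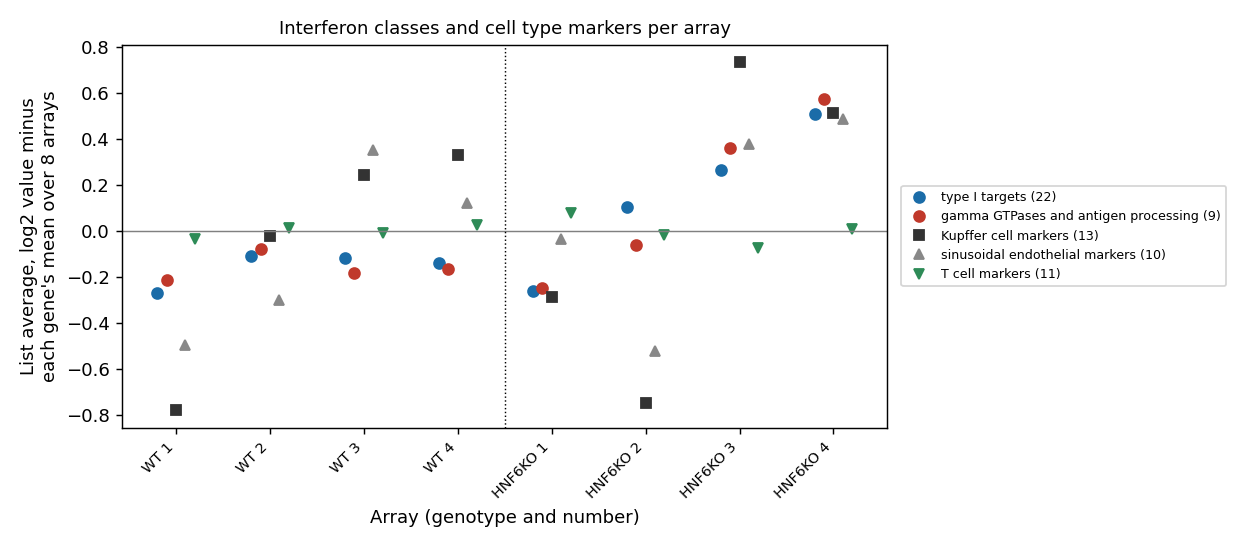
Averages per array of the interferon classes (circles) and of Kupffer, sinusoidal endothelial and T cell markers (squares and triangles), as log2 value minus each gene's mean over the 8 arrays. Kupffer markers run from -0.78 on WT 1 to 0.74 on HNF6KO 3 and are above 0 on WT 3 and WT 4, where the interferon averages lie below 0, and T cell markers stay near 0.

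Markers of other cells were followed in the same way. The 10 sinusoidal endothelial markers averaged -0.50 to 0.35 in WT and -0.52 to 0.49 in HNF6KO. In both genotypes all 10 were higher on arrays 3 and 4 than on arrays 1 and 2, by medians of 0.66 in WT and 0.69 in HNF6KO. Averaged over both genotypes, 6 of them were higher there at an adjusted p of 0.05 (limma). The log2 of their summed signal ran from 11.95 to 12.76 in WT and from 11.8 to 12.94 in HNF6KO. The average of the T cell markers, among them Cd3e, Cd4 and Cd8a, stayed between -0.07 and 0.08 on all arrays. Single T cell markers had changes between genotypes from -0.19 to 0.26. At an unadjusted p of 0.05 (limma), 2 of 11 were higher and 1 lower, against 4.3% and 5.21% of all genes. The average of the NK cell markers stayed between -0.03 and 0.03, and that of the dendritic cell markers between -0.05 and 0.04. Most of these lymphoid markers, 10 of 11 for T cells and 11 of 11 for NK cells, were dimmer than the median gene. Neutrophil markers were on average lowest on HNF6KO arrays 3 and 4, at -0.08 and -0.12. The 4 erythroid markers were also lowest there, averaging 0.08 to 0.16 in WT and 0.08, -0.01, -0.29 and -0.28 on HNF6KO arrays 1 to 4, with a log2 summed signal of 10.23 to 10.43 in WT and 9.391 to 9.999 in HNF6KO. Stellate cell markers averaged -0.33, -0.30, 0.28 and 0.02 in WT and -0.005, -0.19, 0.32 and 0.21 in HNF6KO, higher on arrays 3 and 4 in both genotypes. Markers of monocytes and infiltrating macrophages averaged -0.19 to 0.09 in WT and -0.19 to 0.15 in HNF6KO. The part of these cells in the interferon values was not tested.

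Upstream of the targets, no ligand gene differed between the genotypes at an unadjusted p of 0.05. The list held 15 measured genes, 12 interferons and the inducers of interferon gamma Il12a, Il12b and Il18, and 3 of the 15 had a change above 0. Of the 15, 12 were dimmer than the median gene. Ifnb1 had a change of -0.10 ± 0.07 and Ifng of -0.07 ± 0.05. Of 10 receptor and kinase genes, Ifnar2 alone differed at that level. It read 10.55, 10.62, 10.60 and 10.57 in WT and 10.17, 10.17, 10.54 and 10.30 in HNF6KO, so that every HNF6KO array lay below every WT array. The change was -0.29 ± 0.08 (adjusted p = 0.268). Its partner Ifnar1 had a change of 0.03 ± 0.07, and the interferon gamma receptor genes Ifngr1 and Ifngr2 had changes of 0.29 ± 0.19 and -0.08 ± 0.08. None of the 9 feedback inhibitors, among them Socs1 (-0.10) and Socs3 (-0.02), differed at that level. Of 15 genes that lead from sensors to interferon production, Irf8 (0.18 ± 0.06) and the kinase gene Ikbke (0.33 ± 0.13) were higher and Irf5 (-0.27 ± 0.09) lower, with adjusted p-values of 0.388, 0.437 and 0.348.

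Further targets outside the 40 members mostly had changes above 0, with smaller medians. Of 28 other type I targets measured, 25 had a change above 0, with a median of 0.15, and 5 were higher and 0 lower at an unadjusted p of 0.05 (4.3% and 5.21% of all genes). Herc6, the mouse ligase that attaches ISG15, read 8.27, 8.04, 8.14 and 8.31 in WT and 8.10, 8.82, 9.18 and 9.26 in HNF6KO, a change of 0.65 ± 0.23 (adjusted p = 0.377). The others were Nmi (0.28), Pnpt1 (0.34), Xaf1 (0.27) and Cmpk2 (0.21), whose gene lies beside Rsad2. Of 16 other interferon gamma targets 13 had a change above 0, and Gbp8 alone passed that level, with 0.39 ± 0.15, a share of the 16 near that among all genes. Gbp11, picked out after its values were seen, had its highest value on another array, reading 10.18 on HNF6KO array 1 and 8.30 to 8.63 on the other HNF6KO arrays. The measured MHC class I and peptide loading genes had no such median. The MHC class I genes H2-K1, H2-D1, H2-Q7 and H2-T23, and Psme2, were not measured. The median was -0.02 over the 9 measured genes, and B2m had a change of -0.05 ± 0.05. The proteasome activator gene Psme1 was lower at an unadjusted p of 0.05, with -0.25 ± 0.09 (adjusted p = 0.387). The 14 constitutive proteasome subunits had a median of 0.05.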

How the data were processed

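The authors deposited 1 table of log2 values, 1 per probe set and array, read as log2 from their range of 3.69 to 14.1. Normalization and log base: not given in the sources used here. Of 22725 probe sets, 21113 carried 1 symbol in the platform annotation, 43 several and 1569 none here. Tmem173 and Mb21d1 were matched through older symbols. HNF6KO was compared with WT over 19540 genes with limma 3.58.1 in R 4.3.3 (lmFit and eBayes, Benjamini-Hochberg over all genes). Members, lists and tests were chosen with earlier results of these data known. Values on every array, or ranges, are given for up to 4 members of each class with the smallest p, the 3 with the largest change, and Irf7, Stat2, Irf1 and Cxcl10. For pathway lists up to 3 genes with the smallest p are named. Ifit1, Oasl2, Gbp11 and the further receptor, ligand and target genes were chosen after their values were seen. On simulated data for this comparison with 19540 genes, the step called 76% of 50 genes changed by 0.5 and 92% of 50 changed by 1. Those genes were drawn at random from all genes, each with its own spread. The median SD in HNF6KO was 0.351 for members and 0.111 for all genes, so these rates do not carry over to the members. Alternatives were 3 normalizations, a filter at the 40th percentile, an intensity trend, array weights, other probe set rules, blocks and left-out arrays. The 4 arrays per group limit the precision. Promoter letters are from RefSeq.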

Additional observations from a re-analysis of the deposited data

Results flagged for a closer look

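Rsad2 on HNF6KO array 1 stood apart from its group. Its log2 value there was 7.41, where the other HNF6KO arrays read 8.05 to 8.15, and the gap made up 0.857 of the group's whole range, above the 95% critical value of Dixon's test for a group of 4. This was the only one of 46 such groups (23 genes in 2 genotypes) past that value, and chance alone passes it in about 1 in 20 groups.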

How the results depend on the processing

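The medians of both classes and the difference between them kept their direction or stayed within the spread between arrays under quantile normalization, median centring, cyclic loess, the filter, the intensity trend and the other probe set rules, and no member passed under any of these or at an adjusted p of 0.1. With array weights 202 genes passed instead of 78, among them 2 members, Ifih1 and Rsad2, and 19 members were higher at an unadjusted p of 0.05 instead of 10 (8.33% of all genes against 4.3%). The array numbers do not pair the samples (correlations of same-numbered deviations 0.439, 0.167, 0.506 and 0.023, and not every array correlated best with its own number), and the replicate block called 125 genes and 0 members, with 16 members higher at the unadjusted level (5.84% of all genes). With the division of arrays 1 and 2 from 3 and 4 as a term, 245 genes passed. Within arrays 1 and 2, 22 genes passed, 1 member was higher at the unadjusted level (3.1% of all genes), the interferon gamma median was -0.051 and the contrast of the classes 0.12. Within arrays 3 and 4, 7 members passed, 24 were higher at the unadjusted level (8.62% of all genes), the interferon gamma median was 0.55 and the contrast -0.12. Without HNF6KO arrays 3 and 4, 19 genes passed and 0 members were higher at the unadjusted level (4.44% of all genes). There, 18 of 34 had a change above 0, and the medians were 0.044 for type I and -0.018 for interferon gamma. Every member averaged higher on those 2 arrays than on HNF6KO arrays 1 and 2, so leaving them out had to lower every change.

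Leaving out 1 array at a time gave 16 to 79 genes and 0 to 1 members passing (Rsad2, without HNF6KO array 1, the array with its lowest HNF6KO value). It gave 3 to 19 members higher at the unadjusted level, where 3.25% to 6.53% of all genes were higher. The member count was 3 without WT array 1, HNF6KO array 3 or HNF6KO array 4, and 19 without HNF6KO array 1. Signs were followed for the 23 members picked by the stated rule, whose values or ranges are given. The other 11 members, Ifit1 among them, are covered by the counts above 0. Of the 23, signs turned for Stat2 (-0.11 to 0.061), Irf1 (-0.12 to 0.15), Irf9 (-0.068 to 0.10), Irgm1 (-0.021 to 0.37) and Iigp1 (-0.0014 to 0.16), and without HNF6KO array 4, 27 of 34 members had a change above 0. They also turned with array weights for Stat2 (0.013) and Irf1 (-0.010), with the mean of probe sets for Irf1 (-0.024) and within arrays 3 and 4 for Stat2 (0.20). Within arrays 1 and 2, where 22 of 34 members had a change above 0, they turned among the 23 for Irf7 (-0.12), Irf9 (-0.10), Irgm1 (-0.17), Iigp1 (-0.12), Psmb9 (-0.051), Tap1 (-0.24) and Irf1 (-0.29). Without HNF6KO arrays 3 and 4 they turned among the 23 for Irf7 (-0.15), Irf9 (-0.10), Usp18 (-0.16), Irgm1 (-0.16), Iigp1 (-0.12), Psmb9 (-0.018), Tap1 (-0.027) and Irf1 (-0.12). The cause was not tested. The values in brackets are log2 changes from limma.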
